A study of Drosophila melanogaster with 81 samples.

Results

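The wide Polycomb domains of w1118 embryos are the 529 peaks of H3K27me3, trimethylation of lysine 27 of histone H3, that span at least 5000 bp in the peak list of w1118 at 5.5 to 6 h after egg laying. They were chosen by their width in that list alone, out of 4588 peaks, of which they made up 11.5%. They held 3.89 Mb, which was 35.6% of the length of that list and 2.83% of the genome. Their widths ran from 5003 to 19391 bp, with a median of 6538 bp and quartiles of 5693 and 8188 bp, and 60 of them reached 10000 bp. The members just inside the limit measured 5003 and 5013 bp and the peaks just outside it 4998 and 4996 bp, so the limit cuts through a continuous range of widths. All 8 Hox genes, the best known Polycomb targets, overlapped a domain, and none of 82 ribosomal protein genes did, against 3.13% of all 17807 genes.

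Polycomb repressive complexes keep developmental regulators silent in cells where they are not used. One complex places H3K27me3 and another binds it, and binding to marked nucleosomes helps to place the mark on the neighbours. In Drosophila the mark is recruited at Polycomb response elements and spreads from them over long stretches around genes such as the Hox genes. When DNA is replicated, marked parental histones are shared between the daughter strands and newly made histones fill the gaps, after which the mark has to be restored.

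The data are CUT&Tag peak lists, in which an antibody directs a transposase to cut the DNA around a chromatin mark, from whole Drosophila melanogaster embryos of 30-minute egg lays. Embryos labelled w1118 were compared with embryos that are homozygous for Df(2L)HisC, a deficiency of the cluster of replication-dependent histone genes, here called HisC. The HisC embryos of 5.5 to 6 h also carried P{GAL4-twi.2xPE}, which drives GAL4 from an enhancer of the mesoderm gene twi, and P{UAS:eYFP}AH2, whose eYFP was used to pick them. The label of the HisC embryos for H3K27me3 at 4.5 to 5 h names the deficiency alone. Genotype, background, transgenes and selection thus differed together and cannot be told apart. The times of 4.5 to 5 h and 5.5 to 6 h are here called early and late. Each genotype and time had 1 peak list of H3K27me3 that stood for 2 libraries, so there is no spread between replicates and no difference between the genotypes was tested. The lists of w1118 held 4605 and 4588 peaks and covered 7.92% and 7.94% of the genome, the early list first, and those of HisC held 8320 and 8313 peaks and covered 6.65% and 7.96%. The depth behind the lists is unknown.

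The domains were largely in place in early w1118, 1 h before, and were covered over 47.5% of their bp in late HisC. H3K27me3 peaks of early w1118 covered 85.9% of the domain bp, and those of early HisC covered 39.1%. The median domain was covered over 90.8% of its length in early w1118, 40.01% in early HisC and 50.1% in late HisC. The early list of w1118 shows how far a list that did not choose the domains falls short, and both HisC lists were well below it. A share of at least 50% was reached by 508 domains in early w1118, by 185 in early HisC and by 265 in late HisC. Over all peaks of the choosing list the same was true of 77.7%, 33.3% and 41.0%, and over the 529 domains of 96.0%, 35.0% and 50.1%. The share was lower in both HisC lists than in the early w1118 list for 497 domains, or 94.0%. The same held for 68.1% of all peaks of the choosing list and for 83.95% of its 1427 peaks of 2000 to under 5000 bp.

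**Figure D1:**
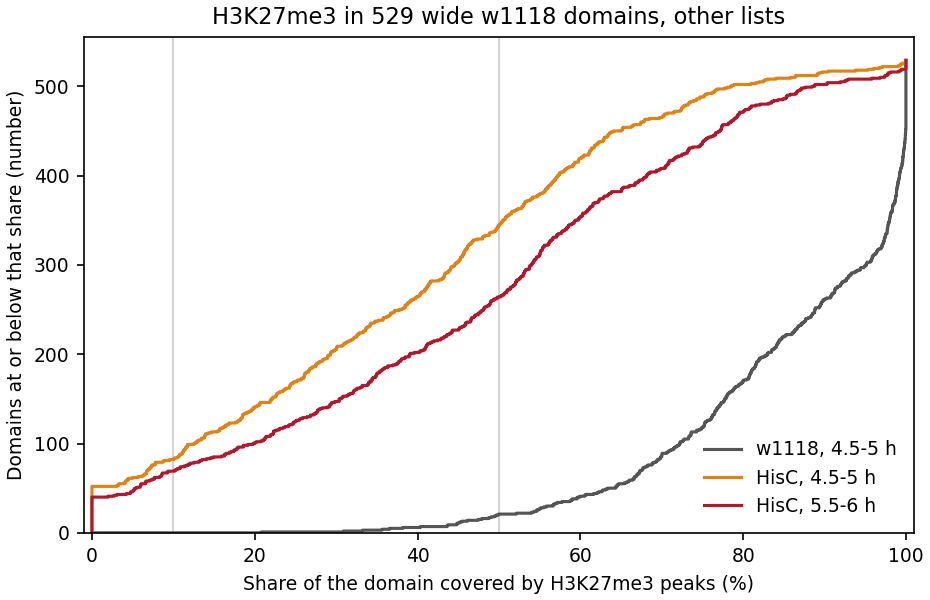
The x axis gives the share of a domain covered by H3K27me3 peaks in percent and the y axis the number of domains at or below that share, for early w1118 and for HisC at both times; grey lines mark 10% and 50%. The w1118 curve climbs mostly above 60%, while the HisC curves climb over the whole range, with the late HisC list to the right of the early one.

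The HisC lists covered a similar length of the genome but placed less of it in the domains. Of all bp in H3K27me3 peaks, 30.7% lay in the domains in early w1118, 16.7% in early HisC and 16.9% in late HisC. Coverage of the domains stood at 5.89 and 5.97 times that of the genome in HisC, and at 10.9 times in early w1118. Between the HisC times the share was higher in the late list for 372 domains, or 70.3%. It was higher for 41.0% of all peaks of the choosing list and for 50.7% of its 1427 peaks of 2000 to under 5000 bp. A peak without overlap in both HisC lists cannot be higher in either of them. Such peaks were 30.6% of all peaks, 18.3% of those of 2000 to under 5000 bp and 5.67% of the domains. The order of the domains was alike at both HisC times, with Pearson's r of 0.833 and Spearman's rho of 0.827 over 529 domains that share the libraries of each list. The share in early w1118 followed that in late HisC less closely, with r of 0.379 and rho of 0.369.

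In HisC the mark lay in shorter pieces within a domain, and its peaks were shorter over the whole lists too. The median peak of the list was 1634 bp in early w1118, 778.5 bp in early HisC and 924 bp in late HisC. In early w1118 358 domains met 1 peak and 171 met 2 or more, and the longest peak met by a domain had a median length of 5857 bp. In early HisC 477 domains met any peak, of which 160 met 1 peak and 317 met 2 or more, with up to 7 pieces, and the longest had a median of 2160 bp. In late HisC 489 domains met any peak, 311 met 2 or more and the median of the longest was 2952 bp. A peak of at least 5000 bp was met by 362 domains in early w1118, by 42 in early HisC and by 85 in late HisC. The gaps between pieces inside a domain had medians of 1469, 1646 and 1666.5 bp in these lists. The smallest gaps between any peaks were 1209, 999 and 1078 bp, so shorter breaks in the mark do not appear in these lists.

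Wide peaks were fewer in HisC, and most of them lay in wide domains of w1118. Peaks of at least 5000 bp numbered 522 in early w1118, 50 in early HisC and 130 in late HisC. Of these, 41 of the 50 and 83 of the 130 overlapped a wide w1118 domain, and 1 and 11 overlapped no late w1118 peak. The 130 wide peaks of late HisC were covered over 75.96% by late w1118 and over 72.3% by early HisC. The 522 wide peaks of early w1118 were covered over 87.3% by late w1118, over 40.8% by early HisC and over 49.2% by late HisC. The HisC lists were thus low on domains chosen at either w1118 time, while w1118 covered at least 75.96% of those chosen at either HisC time.

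A domain was called kept when at least 50% of it was covered in both HisC lists, lost when under 10% was covered in both, and between otherwise. Of the 529 domains 168 were kept, which is 31.8% with an exact Clopper-Pearson 95% interval of 27.8% to 35.9%, against a background of 27.9% over all peaks of the list. The count of kept domains depends on the settings: 54.8% were kept when gaps of up to 3000 bp were joined in every list, a setting added after seeing the data, and 64.8% when 25% coverage sufficed. The lost domains numbered 57, or 10.8% with an interval of 8.26% to 13.7%, against 32.5% of all peaks. No overlap in both HisC lists was found for 30 domains, or 5.67%, against 30.6% of all peaks. The intervals cover counting error only. Being kept was about as frequent among the domains as among all peaks, and being lost was less frequent. All peaks include 1628 of under 1000 bp, of which 49.5% were lost and which early w1118 covered over 62.1% of their bp. A short peak is more easily missed whole than a wide one. The lower share of lost domains is thus not separate from the width by which they were chosen. Among the 1427 peaks of 2000 to under 5000 bp of the same list, 27.7% were kept and 20.6% lost.

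The share of lost domains fell with width, while that of kept domains showed no steady change. Of domains of 5000 to under 6000 bp 29.0% were kept and 15.3% lost. At 6000 to under 8000 bp the shares were 34.3% and 11.4%, and at 8000 to under 10000 bp 31.8% and 4.71%. Of the 60 domains of 10000 bp and more 31.7% were kept and 3.33%, or 2 domains, were lost. The share of bp covered in late HisC showed no trend with width, with r of 0.0396 and rho of 0.0576 over 529 domains. At similar coverage, a shorter domain is more easily missed whole or nearly whole than a wider one. The fall in lost domains is thus not separate from the rule that calls them. Whether width had any part beyond this was not tested. Lost domains were also less covered in early w1118, at 76.2% of their bp, than the 304 domains between, at 84.6%, and the kept ones, at 91.5%.

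Most of the widest domains held the mark in several separate pieces in HisC. All coordinates are those of dm6, counted from 1, and each set of shares is that of early w1118, early HisC and late HisC in that order. The widest of all, with 19391 bp, lay at 3R 17550170–17569560 over Hmx, an NK-type homeobox gene, and was covered over 81.7%, 56.9% and 43.3%. It met 2 peaks in the early w1118 list and 6 and 4 in the HisC lists, the longest of them 2761 and 4060 bp. The domain over the Hox gene Scr, at 3R 6835844–6854582, was covered over 91.98%, 46.3% and 58.0%. The gap gene gt lay in a domain of 17312 bp at X 2425157–2442468 that was covered over 100%, 59.8% and 58.5% and counted as kept. Of the 10 widest domains 3 were kept, namely those of gt, the hindgut T-box gene byn and the forkhead gene fd59A, and none was lost.

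The domain of byn, at 3L 11920856–11936999, was covered over 100%, 55.7% and 69.9%, and that of fd59A, at 2R 22857449–22872559, over 91.2%, 66.2% and 87.6%. The domain over upd3, which encodes a ligand of the JAK/STAT pathway, spanned X 18276770–18294225 and stood at 91.3%, 38.8% and 50.3%. That of the head homeobox gene hbn, at 2R 20948461–20965889, stood at 87.7%, 41.2% and 54.6%. These 4 had between 2 and 6 pieces in each HisC list. The domain over the eye gene L stood at 89.6%, 49.6% and 56.2%, and a domain without a gene, at 3L 21453135–21468262, at 89.4%, 41.5% and 70.9%. The outlier among the widest was a domain of 16473 bp inside CadN, which encodes N-cadherin of the nervous system, at 2L 17734867–17751339. It was covered over 87.5% in early w1118 and over 10.8% and 5.16% in HisC, as 3 and 2 pieces of at most 1142 and 470 bp.

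**Figure D2:**
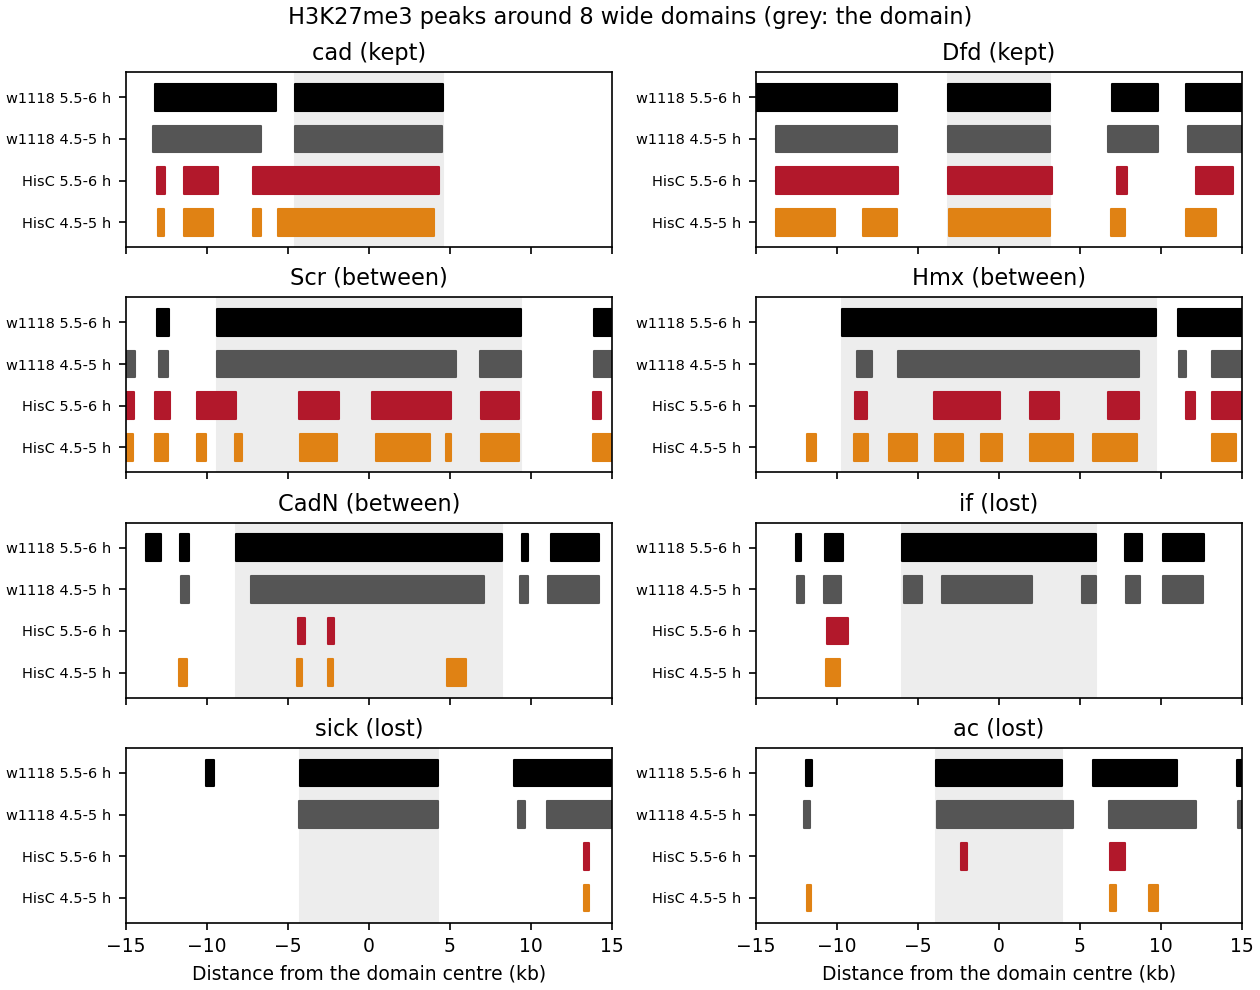
Each of the 8 panels shows the H3K27me3 peaks of the 4 lists as bars, by distance from the centre of a domain in kb, with the domain in grey and its call in the title. The kept domains of cad and Dfd are filled or nearly so in HisC, those of Scr and Hmx hold separate pieces, that of CadN holds a few short peaks, and those of if, sick and ac are empty or hold 1 short peak.

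The kept domains with the highest shares were filled in HisC by 1 peak each. Among these were 2 domains without an annotated gene near the start of the 3R sequence, at 3R 210742–219133 and 3R 298287–304734, both at 100% in both HisC lists. Peaks of HisC ran beyond them, with lengths of 9228 and 9333 bp at the first and of 9401 and 15753 bp at the second. The Hox gene Dfd, which specifies head segments, had a domain at 3R 6799981–6806250 that was covered over 100%, 99.4% and 100%. Its other domain, of 9142 bp at 3R 6787677–6796818, was also kept, at 81.9%, 63.6% and 82.1%, and was added after its values were seen. The domain over the LIM homeobox gene Lmx1a, at 3L 12324355–12329677, stood at 100%, 97.1% and 97.4%. The domain over cad, a homeobox gene of the posterior embryo and gut, spanned 2L 20777068–20786215 and stood at 99.4%, 93.8% and 97.4%. The zinc finger gene erm, which acts in neural progenitors, had a domain at 2L 1949150–1955817 with 97.9%, 90.5% and 92.7%. Of the 10 kept domains with the highest shares 4 held no gene, and 1 of these, at 2R 8046266–8051617, ended 3736 bp from the eye homeobox gene Optix. The other 2 held the noncoding RNA genes lncRNA:CR44310 and lncRNA:CR32111, at no less than 99.3% in each HisC list. Coverage of these 10 domains was 93.2% to 100% in early w1118 and 89.1% to 100% in the HisC lists.

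The lost domains with the most mark in early w1118 had none or 1 short peak in HisC. The domain over sick, a gene of the actin cytoskeleton and of axon growth, spanned 2L 19866884–19875412 and stood at 99.9%, 0% and 0%. The same held for a domain of 8097 bp that held Tim17b2, a gene of the mitochondrial import machinery, with 98.6%, 0% and 0%. Tim17b2 itself spans only 817 of these bp. The proneural gene ac, with the noncoding yar gene beside it, lay in a domain at X 364560–372298 with 99.5%, 0% and 4.76%, the last being a peak of 368 bp. The domain over CSN7, a gene of the COP9 signalosome, also held the larval cuticle gene Lcp1 and stood at 98.1%, 0% and 4.23%. The widest lost domain, of 11982 bp at X 16760438–16772419, lay inside if, which encodes an integrin alpha subunit of muscle attachment, and stood at 62.7%, 0% and 0%.

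Of the other 5 of these 10 lost domains, 2 held no gene and 3 held noncoding RNA genes. That of lncRNA:CR44446 also held the protein-coding gene CG44439. The domain at 3R 8964018–8971871 ended 980 bp from the gene ich and stood at 99.5%, 0% and 0%. That at 3L 15352451–15359753, 8135 bp from the receptor gene Toll-6, stood at 100%, 0% and 0%. The domain of lncRNA:CR46353, 15156 bp from the cell death gene grim, stood at 99.6%, 0% and 0%. The domains of lncRNA:CR44446 and lncRNA:CR44799 stood at 98.4% and 81.6% in w1118 and at no more than 5.18% in HisC. In w1118 these 10 domains were covered over at least 62.7%, and in the HisC lists over at most 5.18%.

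The genes with at least 50% of their body in the domains numbered 323 of 17807, or 1.81%, and 557 genes, or 3.13%, overlapped one. By the same limits on the whole gene body, 146 of the 323 were kept, or 45.2%, against 36.8% of the 1091 genes that were at least 50% covered in late w1118. Lost were 65, or 20.1%, against 23.6%, and 112 were between. Of the 197 protein-coding genes 96 were kept and 29 lost, and of the 112 genes of long noncoding RNAs 45 were kept and 32 lost. The lost protein-coding genes were mostly short genes known by a CG number, and their named members were CheA84a, CheB53a, HLH54F, Nazo, Sfp87B, Tim17b2, ac, gom and nht. HLH54F encodes a bHLH factor of the visceral muscle founders, and Sfp87B a seminal fluid protein. These were named after their values were seen. In the gene lists below, which hold at most 10 genes with at least 50% of their body inside, counts stand beside 45.2% kept and 20.1% lost of all 323 such genes, and at these sizes nothing particular to a list is read from them.

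All 8 Hox genes, the homeobox genes that set segment identity along the body, overlapped the domains, and 4 had at least 50% of their body in them. Of these Dfd was kept, lab, Scr and abd-A were between, and none was lost. Shares of gene bodies are given for early and then late w1118 and for early and then late HisC. Dfd, at 3R 6791836–6802428, stood at 70.2%, 70.2%, 54.0% and 70.9%, so that its late HisC value reached those of w1118. The head gene lab stood at 69.9%, 83.3%, 42.4% and 32.4%, and pb at 45.6%, 57.3%, 31.6% and 25.4%. For both of these the late HisC list was lower than the early one.

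Scr, which acts in the labial and first thoracic segments, stood at 64.7%, 55.5%, 44.1% and 44.8%. Antp, the longest Hox gene here with 102976 bp, stood at 52.5%, 61.7%, 24.8% and 26.4%. In the other Hox cluster Ubx, which specifies the posterior thorax, stood at 52.0%, 58.8%, 28.3% and 41.2%. Both lists of HisC were below both of w1118 at these 3 genes and at the other Hox genes except Dfd. The abdominal gene abd-A, at 3R 16807214–16830049, stood at 67.7%, 74.5%, 41.9% and 63.6%. Abd-B, of the most posterior segments, stood at 77.0%, 78.2%, 37.9% and 45.1%. At the 3 genes of this cluster, and at Dfd, Scr and Antp, the late HisC list was higher than the early one. For the parts of the 8 genes inside the domains the pooled share was 85.6% in early w1118 and 42.3% and 49.0% in HisC.

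The gap, head gap, pair-rule and segment polarity genes divide the early embryo into regions and segments. Among those with at least 50% of their body inside, 11 were kept and none was lost. Of 13 gap and head gap genes 9 overlapped the domains, and the 5 with at least 50% inside were all kept, against 45.2% of all 323 genes. The head gap gene btd stood at 79.3% and 70.0% in w1118 and at 77.5% and 74.5% in HisC. The terminal gap gene tll was fully covered in w1118 and stood at 90.2% in early and late HisC. The body of gt was covered fully in w1118 and over 76.6% and 81.6% in HisC, and that of hkb, which acts at the embryo's poles, over 70.3% and 100% in HisC. At these 4 genes HisC peaks thus covered at least 70.3% of the body.

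Of 16 pair-rule and segment polarity genes 12 overlapped the domains, and the 6 with at least 50% inside were all kept, against the same 45.2%. The pair-rule gene prd, at 2L 12082995–12085827, was covered over 100% in all 4 lists. The segment polarity gene gsb stood at 100% in w1118 and at 91.5% and 100% in HisC. The pair-rule gene run, at X 20690670–20697321, stood at 89.8% and 89.7% in w1118 and at 64.9% and 66.6% in HisC. The segment polarity gene en stood at 91.2% and 93.9% in w1118 and at 89.9% and 56.4% in HisC, so it was lower in late than in early HisC. For the parts of the 12 genes inside the domains the pooled share was 97.1% in early w1118 and 71.5% and 72.3% in HisC.

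Of 39 homeobox genes of tissues and limbs 29 overlapped the domains. Of the 10 with at least 50% inside 6 were kept, 4 were between and none was lost, against 45.2% kept and 20.1% lost of all such genes. The eye gene so stood at 70.7% and 81.1% in w1118 and at 57.3% and 64.2% in HisC. The whole body of cad stood at 83.3% and 90.7% in w1118 and at 72.2% and 82.8% in HisC. The gene hbn was covered fully in w1118 and over 52.9% and 79.4% in HisC, and eyg, a gene of the eye and salivary gland ducts, over 84.4% and 100% in w1118 and 56.4% and 57.1% in HisC.

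Of 25 T-box, GATA, Sox, spalt and other transcription factor genes 20 overlapped the domains, and 4 of the 6 with at least 50% inside were kept, which is near the 45.2% of all such genes given the small number. The 2 between were the T-box gene H15, at 81.6% and 88.5% in w1118 and 37.0% and 45.2% in HisC, and the tracheal gene trh, at 61.4% and 76.8% in w1118 and 45.2% and 38.7% in HisC, both named after their values were seen. Among the kept members, the gut gene fkh was covered over 53.3% and 50.9% in w1118 and over 64.2% and 67.8% in HisC. SoxN, a gene of the neuroectoderm, stood at 61.8% and 54.6% in w1118 and at 63.2% and 76.7% in HisC. In both genes the HisC lists covered more of the body than the w1118 lists. The T-box gene byn stood at 100% in w1118 and at 52.1% and 60.6% in HisC, and Doc1, of the amnioserosa and heart, at 66.2% and 100% in w1118 and 92.5% and 69.5% in HisC.

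Of 21 neuroblast and neuron factor genes 9 overlapped the domains, and of the 7 with at least 50% inside 5 were kept, 1 was between and 1 was lost. The glial genes gcm and gcm2 lie side by side on 2L. The body of gcm, at 2L 9579498–9581745, was at 100% in all 4 lists, and that of gcm2 stood at 81.2% and 77.1% in w1118 and at 95.4% in early and late HisC. The glial gene repo stood at 74.4% and 70.4% in w1118 and at 79.1% and 78.3% in HisC, and the proneural gene ato at 100% in w1118 and 85.8% and 100% in HisC. The lost member was ac, which was fully covered in w1118 and uncovered in HisC. Its neighbour of the same gene complex, sc, stood at 100% in w1118 and at 56.7% and 48.3% in HisC, and was named after its values were seen.

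Of 13 mesoderm and muscle factor genes 6 overlapped the domains, 5 were kept and 1 was between. The heart and visceral mesoderm gene tin was fully covered in w1118 and covered over 100% and 69.1% in HisC. The visceral mesoderm gene bin stood at 79.3% and 59.5% in w1118 and at 88.7% and 88.9% in HisC. Poxm, a paired-domain gene of the somatic mesoderm, stood at 72.8% and 70.5% in w1118 and at 64.1% and 63.7% in HisC. Its relative Poxn, which is better known for sense organs than for muscle, stood at 76.8% and 85.4% in w1118 and at 73.9% and 60.3% in HisC.

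Of 30 genes of signalling ligands and receptors 13 overlapped the domains, and of the 2 with at least 50% inside upd2 was kept and upd3 was between. The JAK/STAT ligand gene upd2 stood at 73.5% and 74.0% in w1118 and at 77.5% and 78.2% in HisC, whereas upd3, also on X, stood at 81.4% and 100% in w1118 and at 29.7% and 62.2% in HisC. Of 21 Polycomb group genes ph-p and Su(z)2 overlapped a domain. Su(z)2 stood at 69.5% and 59.9% in w1118 and at 36.6% and 37.5% in HisC, while ph-p stood at 34.6% and 31.3% in w1118 and at 35.6% and 40.5% in HisC. These 2 genes thus went opposite ways, and were named after their values were seen. Of 179 chemoreceptor genes Ir48c, Or67c and Or85a, or 1.68%, lay in domains, against 3.13% of all genes that overlap one. These 3 were kept, at 100% in late HisC. Or85a lies within the span of Poxm and Ir48c within that of the signalling gene ths, so their coverage is not separate from that of these genes. None of 11 cell death and stress genes overlapped a domain, and with 3.13% of all genes overlapping one, nothing is read from this.

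The parts of adhesion and axon guidance genes inside the domains were less covered in HisC than those of the transcription factor lists. This measure of the parts of genes, and the genes named from it, were chosen after values were seen. Of 30 such genes 10 overlapped the domains, none with 50% of its body. Pooled over the 10, 76.2% of the bp inside domains was covered in early w1118 and 14.7% and 16.3% in HisC, against 86.4%, 39.7% and 47.5% over all 557 genes. By these parts 1 of the 10 was kept and 5 were lost, against 40.6% kept and 19.4% lost of all genes that overlap a domain. By the same measure 2 of 8 Hox genes were kept and none lost, 20 of 29 homeobox genes were kept and none lost, 8 of 20 genes of the T-box list were kept and none lost, and 5 of 13 signalling genes were kept and 2 lost. Of the 10, bru3 encodes an RNA-binding protein and is no adhesion or guidance gene by that function.

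In CadN 36809 bp lay in 4 domains, covered over 75.8%, 8.51% and 14.6%. The inside part of the septate junction adhesion gene Fas3 stood at 50.3%, 0% and 2.302%, and those of the receptor gene otk and of caps, a gene of leucine-rich repeat proteins in axon targeting, at 67.95% and 49.04% in early w1118 and 0% in HisC. The netrin gene NetA stood at 94.5%, 7.76% and 9.51%, and side, a gene of motor axon guidance, at 99.2%, 0% and 0%. For side this rests on 2445 of 62395 bp, and over its whole body HisC covered more, with 8.28% and 10.6%, than w1118, with 5.29% and 7.34%. The kept member was Con, an adhesion gene of muscles and motor neurons, at 94.1%, 61.5% and 69.99%. Con thus ran against the rest of its list.

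**Figure D3:**
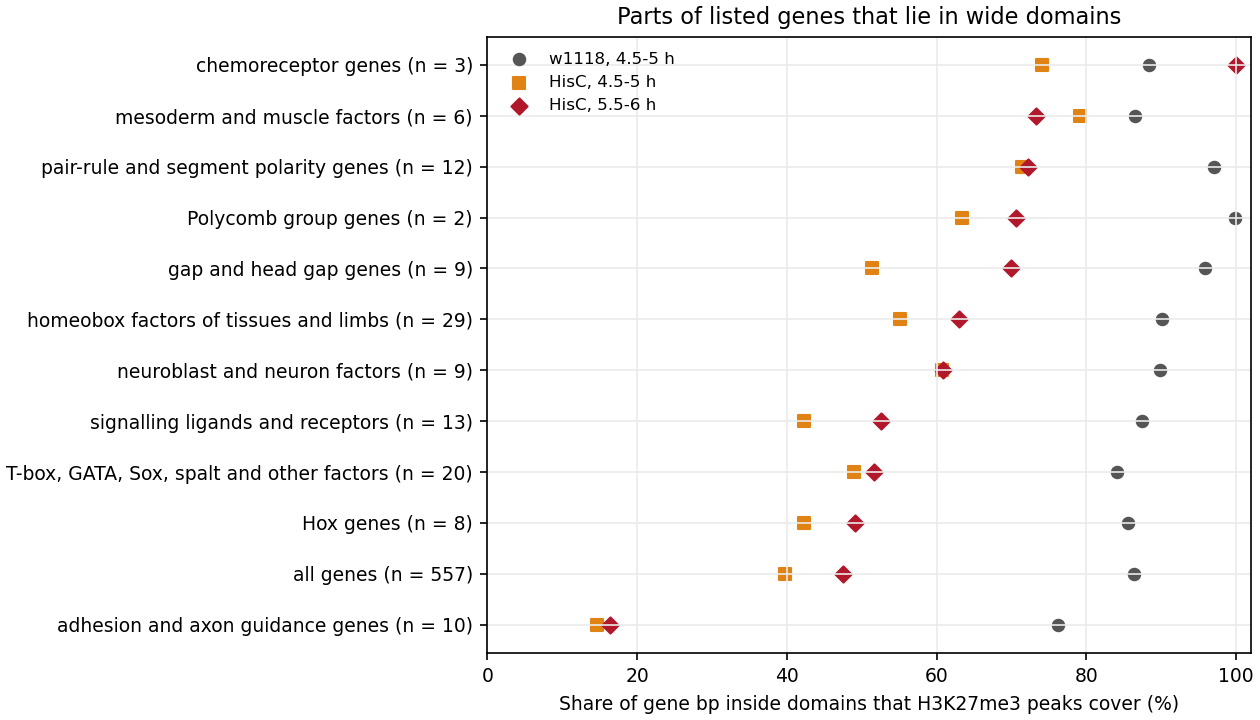
The x axis gives the share of the bp of listed genes inside domains that H3K27me3 peaks cover, pooled over the genes of a list, for early w1118 and HisC at both times; n is the number of genes that overlap a domain. The HisC points of the adhesion and axon guidance list stand at 14.7% and 16.3%, to the left of those of all genes at 39.7% and 47.5%, while those of the pair-rule and segment polarity list stand at 71.5% and 72.3%.

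The 10 adhesion and guidance genes had a median length of 67867.5 bp, against 3429 bp for all genes that overlap a domain. The position of a domain relative to genes moved with coverage in HisC. Of the 140 domains wholly inside 1 protein-coding gene 27 were kept and 27 lost, which is 19.3% each, with an exact 95% interval of 13.1% to 26.8%. Of the 133 domains that met a part of a protein-coding gene, so that an end of the gene lay in them or they reached past it, 61 were kept, or 45.9% (37.2% to 54.7%), and 3 were lost, or 2.26% (0.468% to 6.45%). Of the 84 that held a whole protein-coding gene 30.95% were kept and 7.14% lost, and of the 172 that met no protein-coding gene 31.4% and 12.2%. In early w1118 the domains inside a gene were covered over 82.0% and those that met a part over 90.2%. The part of gene length and of position in the values of the adhesion and guidance list was not tested.

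Neighbouring domains formed blocks, some of which were lost or kept together. Joined across distances of up to 10000 bp, the 529 domains made 395 blocks, of which 96 held several domains and 230 domains in all. The largest, with 7 domains over 90.3 kb at X 20643434–20733713, surrounds run, and 2 of its domains were kept and none lost. All 6 domains of a block at 3L 15745370–15803450, which carries genes of long noncoding RNAs, were lost. That block stood at 64.9% in early w1118 and at 1.92% and 3.68% in HisC. In the block of gcm and gcm2 3 of 4 domains were kept, at 93.5%, 69.4% and 76.9%, and in that of the limb gene Dll 2 of 3, at 99.9%, 62.4% and 67.4%. The domains of a block share their neighbourhood and are not independent points.

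Among X and the arms of chromosomes 2 and 3 the kept share ran from 25.5% on 2L, with 27 of 106 domains, to 39.0% on 2R, with 32 of 82. On 3R 53 of 141 were kept, on 3L 32 of 110 and on X 22 of 79. On 3L 20 of 110, or 18.2%, were lost, against 7.09% on 3R, where 10 of 141 were lost. Of the 10 domains of chromosome 4, which holds the eye genes ey and toy, 1 was kept and none lost, and the 1 domain of Y was kept. The 95% intervals of the kept share overlapped between the chromosomes.

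The HisC lists stepped up at the edges of the w1118 domains and were flat inside them. In the outer 500 bp of each side 76.4% was covered in early w1118 and 38.0% and 43.4% in HisC. More than 2000 bp from both edges the shares were 88.0%, 39.2% and 47.8%. Just outside, over 500 to 1000 bp from the edge, they were 10.3%, 4.85% and 7.61%. Farther out, at 4500 to 5000 bp, they rose to 44.3%, 24.8% and 29.6%, where other peaks lie. The dip outside is partly fixed by the choice of the members, because the choosing list has no peak within 1134 bp of another.

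**Figure D4:**
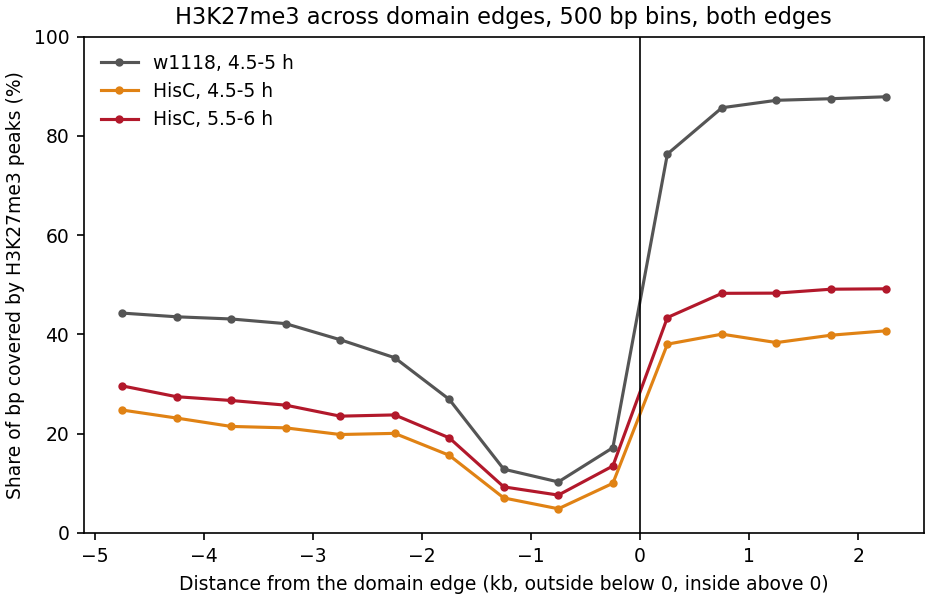
The x axis gives the distance from a domain edge in kb, outside below 0 and inside above 0, and the y axis the share of bp covered by H3K27me3 peaks in 500 bp bins over both edges of the 529 domains. All 3 lists step up at the edge, w1118 to above 76% and the HisC lists to between 38% and 50%, and all dip just outside it.

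Other marks covered little of the domains, and H3K27ac covered less of them in HisC. H3K27ac, an acetylation of the same residue that marks active enhancers and promoters, covered 6.21% and 8.10% of the domain bp in early and late w1118 and 3.36% and 3.303% in early and late HisC. Its lists covered 5.02% and 5.93% of the genome in w1118 and 4.96% and 5.74% in HisC. In w1118 the domains were thus covered above the genome's share and in HisC below it. An H3K27ac peak was met by 326 and 330 domains in w1118, or 61.6% and 62.4%, against 35.0% and 34.6% of all peaks of the H3K27me3 list. In HisC it was met by 182 and 154, or 34.4% and 29.1%, against 25.2% and 24.7%. A wider region meets a peak more easily, so these counts do not show more H3K27ac per bp in the domains. In peaks of 2000 to under 5000 bp H3K27ac was also lower in HisC, at 5.83% and 6.34%, than in w1118, at 8.27% and 10.3%. By bp the domains thus carried less H3K27ac than these narrower peaks in both genotypes. In whole embryos fewer cells with a mark and less mark per cell cannot be told apart, and both marks on 1 region may come from different cells.

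H2AK9ac covered 12.7% and 10.5% of the domain bp in w1118 and 9.0% and 7.65% in HisC. H2BK16ac stood at 10.03% and 11.0% in w1118 and at 11.3% and 9.42% in HisC, higher at the first time and lower at the second. H3K36me3, the mark of transcribed gene bodies, stood at 4.84% and 5.22% in w1118 and at 4.202% and 4.08% in HisC. H3K4me3, the mark of active promoters, stood at 4.21%, 3.04% and 3.37% in w1118 at 3.5 to 4 h, early and late, and at 5.82%, 3.69% and 5.01% in HisC, where the list behind the first value is named with an exclusion of unknown meaning. Coverage was thus higher in HisC at each time. Its lists also covered more of the genome at each time, with 5.49%, 4.799% and 5.74% against 4.63%, 3.98% and 4.11%.

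**Figure D5:**
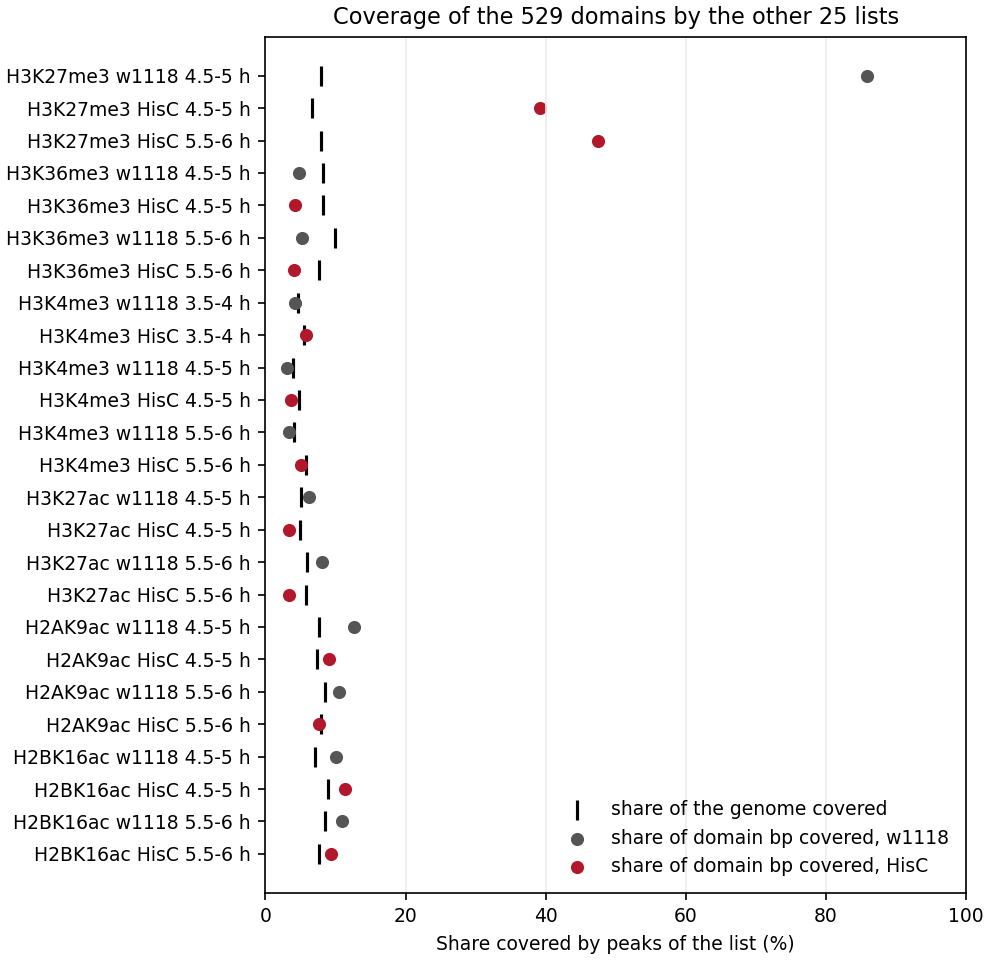
The x axis gives the share of bp covered by the peaks of each of the other 25 lists, with a dot for the 529 domains and a black tick for the genome. The H3K27me3 dots stand at 85.9%, 39.1% and 47.5%, all others stay under 13%, and for H3K27ac the w1118 dots lie right of their ticks and the HisC dots left of them.

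The parts of the domains that were covered in both HisC lists carried more of the other marks in w1118 than the parts covered in neither. Of the domain bp 34.7% lay in H3K27me3 peaks of both HisC lists, 48.1% in neither and 17.2% in 1 of them. H3K4me3 of late w1118 covered 8.07% of the bp in both lists and 0.822% of the bp in neither. For H3K36me3 of late w1118 the shares were 11.9% and 1.27%, for H2AK9ac 20.8% and 3.62%, for H2BK16ac 21.6% and 3.82% and for H3K27ac 12.9% and 5.03%. Read the other way, 83.2% of the domain bp under w1118 H3K4me3 was covered in both HisC lists, and 33.0% of the rest. The 500 bp around gene ends made up 18.1% of the bp in both lists and 11.4% of those in neither, while gene bodies made up 52.2% and 52.4%.

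Overlap with the other marks was also measured on the bp of each H3K27me3 list, inside and outside the domains. Parts covered in both HisC lists and in neither were not compared outside the domains. Of the H3K27me3 bp outside the domains, H3K4me3 of the same genotype and time covered 3.77% and 4.22% in w1118 and 13.5% and 10.2% in HisC. Inside the domains the shares were 3.44% and 3.37% in w1118 and 8.72% and 9.82% in HisC. H2BK16ac covered 11.2% and 11.0% of the H3K27me3 bp inside the domains in w1118 and 21.9% and 16.7% in HisC, and outside them 19.5% and 21.3% against 42.8% and 29.1%. H3K36me3 stood at 5.57% and 5.22% inside in w1118 against 9.47% and 7.69% in HisC, and outside at 6.88% and 6.95% against 18.1% and 13.2%. H2AK9ac stood at 14.3% and 10.5% inside against 18.2% and 13.2%, and outside at 22.5% and 19.5% against 36.7% and 25.0%. For H3K27ac, in contrast, the shares inside the domains were 6.84% and 8.10% in w1118 and 6.74% and 5.15% in HisC. Outside them they were 10.3% and 12.6% against 12.4% and 11.3%, higher in HisC at the early time alone. The HisC lists of H3K27me3 thus overlapped more with peaks of each of these marks but H3K27ac, both inside and outside the domains.

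By call, kept domains carried more H3K4me3 and less H3K27ac in w1118 than lost ones. H3K4me3 of late w1118 covered 5.35% of the bp of kept, 2.53% of those of between and 1.97% of those of lost domains. H3K27ac of late w1118 covered 6.26%, 8.56% and 11.4% of the bp in the same order. In late HisC H3K27ac stood at 2.75%, 3.41% and 4.52%, so that it was below w1118 in each class of domains. Lost domains were met by H3K4me3 of late HisC in 10 of 57 cases, or 17.5%, against 8 of 57 in late w1118. Over all 529 domains these peaks met 37.6% and 27.98%, and over all peaks of the H3K27me3 list 21.4% and 13.4%, so lost domains stood below the rest of the domains in both genotypes.

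A check of the embryo's tissues is limited to peaks of H3K4me3 near marker genes. Of 15 marker genes of germ layers and the germline, 6 had H3K4me3 near a gene end in early and late w1118, and 7 and 9 had it in early and late HisC. The mesoderm markers twi and sna and the gut markers hkb and fkh had it in all 4 lists, as did the germline gene nanos. Mef2, of the muscle lineage, and pnr, of the dorsal ectoderm, had it in both HisC lists and neither w1118 list, and vnd, of the ventral neuroectoderm, and srp, of the endoderm and blood, in late HisC alone. The germline marker vas had it in both w1118 lists and in neither HisC list. The markers sog, rho, zen, dpp and pgc had none in any of the 4 lists. Of the 15 markers 8 overlap a wide domain. The part of tissue composition or developmental stage in the differences between the genotypes was not tested.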

How the data were processed

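Per the labels, CUT&Tag was done on whole embryos, and the deposited lists give peak positions (chromosome, start and end) with no height, score or p-value. Per the submitters' processing notes, the build was dm6 and the tools were Bowtie2 2.3.4.2, cutadapt 1.17, deepTools 3.3.1, SAMtools 1.9 and Trim Galore 0.6.6. How peaks were called and libraries pooled is not given in the sources used here. Peaks are of a narrow type for H3K4me3 and H3K27ac and of a broad type for the other 4 marks, and blacklisted regions were taken out, per the names of the deposited files. The 26 lists stand for 59 of 81 libraries, and the other 22 libraries (H3K4me3 of CyO embryos, H1, RNAP2 and RNAP2 ser2) are not analysed here. For H3K4me3 of HisC at 3.5 to 4 h the deposited name carries an exclusion mark that no source used here explains, so it may stand for fewer than its 2 libraries. Depth is unknown.

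The covered bp of each domain were computed with Python 3.11.15, pandas 2.3.3 and NumPy 2.4.6 and tested on simulated peaks with known overlaps, and exact intervals came from SciPy 1.17.1. Figures were drawn with matplotlib 3.10.9. Domains were kept from 50% and lost under 10% in both HisC lists. Genes came from a RefSeq table of Release 6 with 17807 genes, without strand or transcripts, so exons, introns and transcription starts were not separated. The genome length of 137.4 Mb is the sum of the last gene or peak end of each chromosome. No test between the genotypes was run, because each group had 1 pooled list.

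Named were the 10 widest domains, the 10 kept with the highest smaller HisC share, the 10 lost with the most bp in w1118 at 4.5 to 5 h, every Hox gene, and up to 4 kept and 4 lost genes per gene list. A domain is called by the gene with the largest overlap, with CG and CR numbers second. The members, lists and limits were chosen with earlier results of these data known. Alternatives changed the width limit, the joining of gaps, the smallest peak, the number of peaks, the chromosomes, the limits of the calls and the list that chose the domains.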

Additional observations from a re-analysis of the deposited data

How the results depend on the processing

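Of 87 alternative values 68 stayed within the counting interval or 1.5 times the count, and 19 did not. That interval takes the domains as independent counts, also for shares of bp. They are not independent, so it serves as a yardstick only and measures no spread of these values. Coverage in w1118 at 4.5 to 5 h was 79.4% and 89.1% for domains chosen in HisC at 5.5 to 6 h and at 4.5 to 5 h. For these, coverage in HisC at 4.5 to 5 h was 72.3% and at 5.5 to 6 h 89.5%. Joining gaps of up to 3000 bp, added after seeing the data because almost no gap reached down to 1000 bp, gave 95.2%, 59.0% and 65.5% for w1118 at 4.5 to 5 h, HisC at 4.5 to 5 h and HisC at 5.5 to 6 h, and 54.8% kept. Kept domains were 26.5% with equal numbers of widest peaks and 64.8% from 25% coverage, and lost ones 5.67% at 0 coverage. At limits of 7500 and 10000 bp lost domains were 6.08% and 3.33%, with 181 and 60 domains in all. Kept genes were 64 of 138 and 29 of 62, against 146 of 323 at 5000 bp. Lost genes were 30 of 138 and 13 of 62, against 65 of 323. They were 98 of 483 at 4000 bp and 123 of 557 with any overlap. The number of genes in the set thus moved along with these counts. Leaving out chromosome X, also added after seeing the data, moved none of the results. No paired analysis was possible because each group has 1 pooled list with no values per library, and for the same reason no replicate could be left out. Depth, peak threshold and the joining of peaks are unknown for each list, so a difference in them between the genotypes cannot be told apart from a difference in the mark.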
